A study of Homo sapiens with 6 samples.

Results

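The histone genes described here are the 71 of 26372 genes in the deposited expression table whose symbols start with HIST1H, HIST2H, HIST3H or HIST4H, the clustered core and linker histone genes. Of them, 56 belonged to the HIST1 cluster on chromosome 6, 11 to HIST2, 3 to HIST3 and 1 to HIST4. By histone type, 6 coded for H1, 17 for H2A, 20 for H2B, 14 for H3 and 14 for H4, counting pseudogenes under the type they are named for. Members were taken by symbol alone. RNA came from SH-SY5Y cells, an established human neuroblastoma line that had been infected with lentivirus and kept under puromycin (2 ug/mL for 2 weeks, then 1 ug/mL). The knockdown group (shT2) carried a short hairpin RNA, or shRNA, against TDP-43, an RNA-binding protein encoded by TARDBP. The control group (shNC3) carried a control shRNA under the same selection. Each group had 3 libraries, made with poly(A) selection and a directional kit. The labels name 1 hairpin a group and do not say whether each library is a culture of its own, so the p-values speak only of variation among these libraries, which may be technical.

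Histones are the proteins around which DNA is wound: H2A, H2B, H3 and H4 form the core of the nucleosome and H1 binds the linker DNA. Most genes of the HIST clusters are switched on in S phase, when NPAT and its partners drive their transcription. Their messenger RNAs have no introns and usually no poly(A) tail. They end instead just after a short stem-loop that is bound by SLBP and cut with the help of the U7 small RNA, LSM10 and LSM11, and they are degraded quickly when DNA synthesis stops. Some of these genes can also give longer, polyadenylated transcripts, for example in differentiated cells.

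The stem-loop is shown first because it is the element that sets this family apart. It was searched for in the GENCODE v29 transcript models (GRCh38) as the histone stem-loop, an inverted repeat of 16 bases with a pyrimidine-rich loop. A match was found in models of 31 members, in 6 distinct forms. Another 34 members have models that end at the stop codon, so that no bases were left to search. In 4 more, HIST1H1E, HIST1H1T, HIST1H4C and HIST1H2BJ, models held bases after the stop but no match. Models of the pseudogenes HIST1H2APS1 and HIST2H2BA held no match either. No H1 gene had a match, but of the H1 genes only HIST1H1E and HIST1H1T have models with bases after the stop. The search therefore cannot show that H1 genes lack the stem-loop. The following examples show each form with 5 flanking bases on each side, the stem-loop in capitals.
HIST1H2AE: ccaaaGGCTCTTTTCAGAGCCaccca
HIST1H2BD: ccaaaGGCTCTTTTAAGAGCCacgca
HIST4H4: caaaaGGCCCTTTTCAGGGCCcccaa
HIST1H4I: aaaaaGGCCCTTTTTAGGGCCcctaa
HIST2H2BC: ccaaaGGCTCTTTTCAGGGCCattta
HIST1H3E: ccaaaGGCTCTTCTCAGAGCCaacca
The form shown for HIST1H2AE was carried by 16 members of types H2A, H2B and H3. Those shown for HIST4H4 and HIST1H4I were carried by 5 and 2 members, all of type H4. The form of HIST1H2BD was carried by 5 members and that of HIST2H2BC by 2, while HIST1H3E was alone with its own.

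Promoter windows of 300 bases (250 before and 50 after the start site, RefSeq, GRCh38.p14) were matched for 63 members. Those of the coding member with the largest rise, HIST1H3A (chr6:26020201-26020500, plus strand), of the member with the largest fall, HIST4H4 (chr12:14771082-14771381, minus strand), and of HIST1H2BJ, which also fell (chr6:27132746-27133045, minus strand), are shown. Capitals mark the TATA box, searched as TATAAA, the CCAAT box, searched as those letters, and the octamer, searched as ATTTGCAT, each on either strand, and overlapping matches run together.
HIST1H3A: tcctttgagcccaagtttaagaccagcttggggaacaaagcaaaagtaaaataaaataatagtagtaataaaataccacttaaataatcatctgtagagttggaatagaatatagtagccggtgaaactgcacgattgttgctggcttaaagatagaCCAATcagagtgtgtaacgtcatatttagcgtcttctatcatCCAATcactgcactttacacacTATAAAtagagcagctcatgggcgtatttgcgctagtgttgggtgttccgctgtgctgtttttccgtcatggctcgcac
HIST4H4: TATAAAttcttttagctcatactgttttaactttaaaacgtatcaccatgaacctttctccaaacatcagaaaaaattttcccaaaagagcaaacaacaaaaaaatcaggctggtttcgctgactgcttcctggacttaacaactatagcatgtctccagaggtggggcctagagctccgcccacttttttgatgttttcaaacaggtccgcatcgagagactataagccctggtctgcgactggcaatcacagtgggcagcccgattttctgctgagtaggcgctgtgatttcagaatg
HIST1H2BJ: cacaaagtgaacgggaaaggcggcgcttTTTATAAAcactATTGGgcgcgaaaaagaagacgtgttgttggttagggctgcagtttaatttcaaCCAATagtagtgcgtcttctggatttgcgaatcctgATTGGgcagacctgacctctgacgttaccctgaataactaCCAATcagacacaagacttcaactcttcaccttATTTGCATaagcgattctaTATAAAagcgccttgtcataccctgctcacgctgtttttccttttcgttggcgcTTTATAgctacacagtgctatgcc
The HIST1H3A window holds CCAAT repeats followed by TATAAA near the start site. The only match in the HIST4H4 window, a TATAAA, lies at its far upstream end. The HIST1H2BJ window adds ATTTGCAT, the octamer bound by OCT1, just before a TATAAA.

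Across the matched members, TATAAA on either strand stood in 66.7% of windows, against 12% of the windows of all 27305 genes of the promoter table. CCAAT stood in 85.7% against 35.7%, and in every window of an H1, H2A, H2B or H3 member but in 3 of 12 H4 windows. ATTTGCAT stood in 41.3% against 1.8%, in 11 of 15 H2A and 14 of 18 H2B windows. HIST1H3D, the 1 H3 member with ATTTGCAT, has the same window as HIST1H2AD (chr6:26199244-26199543). That window lies away from the GENCODE model of HIST1H3D (chr6:26196840-26197250), and its CCAAT and ATTTGCAT are counted for both genes. The H1 element AAACACA stood in all 6 H1 windows and in 5.76% of all windows. Of the tested members with TATAAA, 22 of 34 rose and 3 fell (median difference 0.19), and without it 13 of 20 rose and 1 fell (0.185). With ATTTGCAT, 16 of 24 rose and 2 fell (0.175), and without it 19 of 30 rose and 2 fell (0.24). With CCAAT, 32 of 47 rose and 3 fell (0.20), and without it 3 of 7 rose and 1 fell (0.05). With AAACACA, 5 of 6 rose and 0 fell (0.225), and without it 30 of 48 rose and 4 fell (0.18). Here rose and fell mean called by the threshold given below. Of all 61 tested members 65.6% rose and 8.2% fell, against 30.5% and 35.9% of all tested genes. Differences between members with and without a motif were not tested. The motif matches describe letters in a window, not binding.

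Values are FPKM, fragments scaled by transcript length and by the number of mapped fragments. TARDBP, the targeted gene, was at 21.9, 20.7 and 21.0 FPKM in knockdown and 50.3, 50.3 and 47.8 FPKM in the control (exact two-sided permutation test, p = 0.1, the smallest that 3 against 3 libraries allow). Depth relative to control library 1, read from the spacing of low values, was 52.5% to 94.0% in the knockdown and 84.1% to 100.0% in the control. SNORD3A, a small RNA, was listed at 0 in the control and RN7SK at 0 in the knockdown, and 6 such small RNAs held much of each column sum. Their share was 79.68% to 81.98% in knockdown libraries and 63.8% to 64.91% in control libraries. The part of this difference in the histone results was not tested. Markers of the noradrenergic state of neuroblastoma were higher in the knockdown, 7 of 8 tested (summed 930.0 to 1036 FPKM against 492.6 to 504.7). Mesenchymal markers were lower, 8 of 10 (623.1 to 637.6 against 2184 to 2224), with ANXA1 at 0 in every knockdown library, but TWIST1 of that list rose, to 294 from 111 FPKM. The noradrenergic enzyme genes did not follow their list: TH was at 0 in all 6 libraries, and DBH was lower, at 31.3 against 38.1 FPKM. The fall of DBH was not called with quantile normalization. Of all tested genes, 30.5% were called higher and 35.9% lower, by the threshold given below. Schwann and glial markers summed to 7.49 to 8.98 FPKM against 2.53 to 2.75, with 3 of 5 under 1 FPKM. In bulk RNA, fewer cells of a type and less RNA per cell cannot be told apart, and the part of these markers or of depth in the histone results was not tested.

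Histone messenger RNAs were among the most abundant in the table, in both groups. Of the 71 members, 53 averaged 100 FPKM or more and 13 averaged 500 FPKM or more. Among the 61 members that reached the 1 FPKM mean needed for testing, 56 stood in the top 10% of levels, with a median percentile of 98.4. The labels give poly(A) selection, and whether these transcripts carried tails was not measured. All members together summed to 21411, 21280 and 22045 FPKM in knockdown libraries and 18470, 18647 and 18542 FPKM in control libraries, which is 21578.6 ± 409 against 18553.1 ± 89.3 (SD, n = 3), or 1.16-fold. The lowest knockdown library lay above the highest control library. The family made up 4.31% to 4.99% of each column once the 6 small RNAs were left out. In the control, H2B genes supplied 30.1% of the family's FPKM, H4 genes 26.5%, H2A genes 19.0%, H3 genes 14.4% and H1 genes 9.96%.

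The summed level was higher in the knockdown for each histone type, and no type's groups overlapped. H1 genes summed to 2083.3 ± 35.5 against 1847.8 ± 15.4 FPKM (1.13-fold) and H2A genes to 4011.4 ± 187 against 3524.2 ± 38.6 (1.14-fold). For H2B the sums were 6205.6 ± 95.2 and 5586.2 ± 71.5 (1.11-fold), for H3 3191.0 ± 127 and 2674.6 ± 70.8 (1.19-fold), and for H4 6087.2 ± 170 and 4920.4 ± 49.3 (1.24-fold; all SD, n = 3). Under the other scalings tried, each type's sum over tested members stayed higher in the knockdown with no overlap. Their order did not hold: with quantile normalization the fold was 1.09 for H4, 1.26 for H2A and 1.3 for H3. Differences between the types were not tested.

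**Figure D1:**
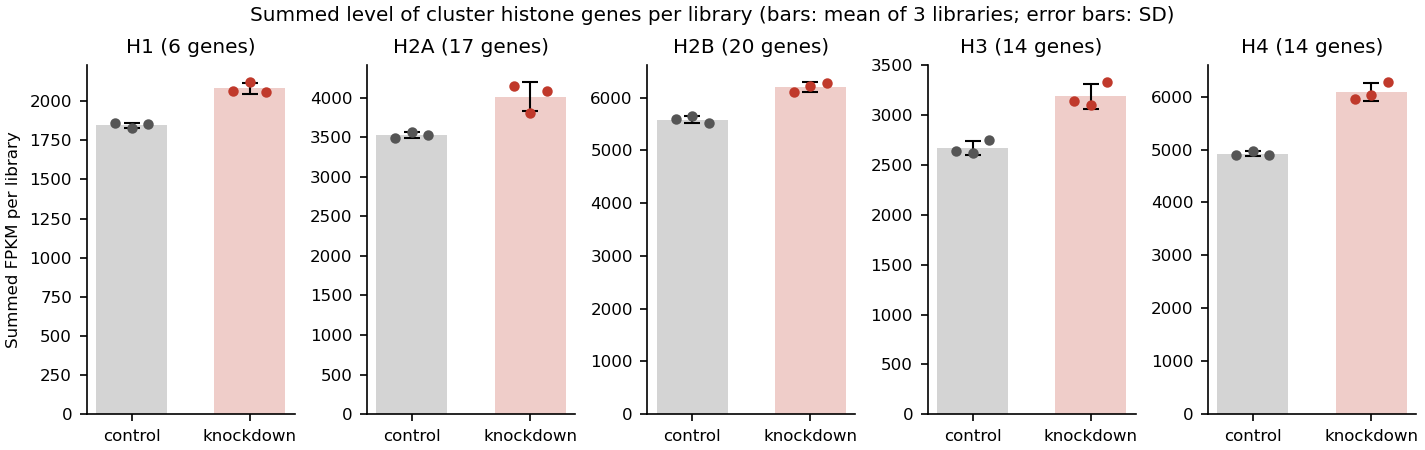
Summed FPKM of the cluster histone genes of each type in each library; bars are means of 3 libraries, error bars the SD and points single libraries. Knockdown libraries sit above control libraries for each type, from 1.11-fold for H2B to 1.24-fold for H4.

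Gene by gene, most members moved up by a small amount. Differences are knockdown minus control on the log2(FPKM + 1) scale, tested with limma, and the threshold for a call was an adjusted p under 0.05 over 13434 genes. Of the 61 tested members 40 rose (65.6%), 5 fell (8.2%) and 16 were not called, where 30.5% of all tested genes were called higher and 35.9% lower. The knockdown libraries all lay above the control libraries for 38 members (62.3%), against 32.5% of all genes, and all below for 5 (8.2%), against 38.2%. The median difference was 0.20 for the members and -0.02 for all genes. With quantile normalization 45 members were called higher and 4 lower, while the share of all genes called moved to 40.1% higher and 28.1% lower. That scaling made 16 of the rises larger by over 1.5 times, for example HIST1H3J (0.69), HIST2H2BE (0.75), HIST2H2AB (0.62), HIST3H2A (0.71) and HIST1H4A (0.71), and 3 smaller, and values that shrank or turned are given with each gene. HIST2H2BC was the 1 member that changed at least 2-fold, where 1512 of all tested genes did.

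**Figure D2:**
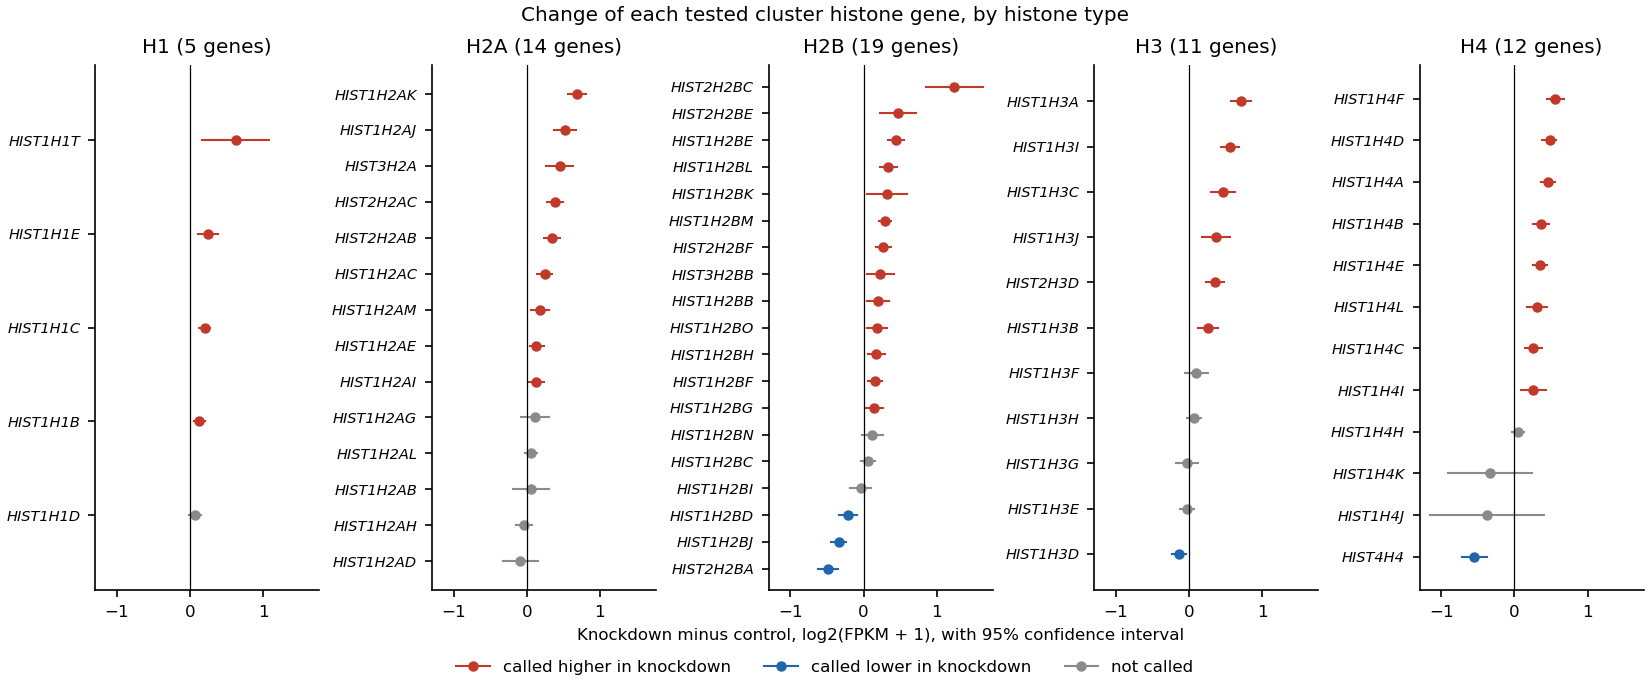
Difference between knockdown and control, log2(FPKM + 1), with its 95% confidence interval for each of the 61 tested members, by histone type; red marks a call of higher, blue lower and grey not called. Most points lie a little right of 0; with quantile normalization HIST1H4C, HIST1H4E, HIST2H2BF and HIST1H3D change sign.

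Of the linker histone genes, 4 of 5 tested rose and none fell (median 0.20). Over all tested genes 30.5% were called higher and 35.9% lower. HIST1H1C, which codes for H1.2, was at 671.5, 674.0 and 681.5 FPKM in knockdown libraries and 587.5, 590.1 and 586.3 in control libraries, a difference of 0.20 (SE 0.03, adjusted p = 0.00039). HIST1H1B, which codes for H1.5, was at 594.5, 600.8 and 584.5 against 541.2, 539.9 and 541.9 FPKM (0.13, SE 0.0307, adjusted p = 0.00464). Both genes had replicate spreads far below their differences. HIST1H1E rose by 0.25, and HIST1H1D was not called at 0.07. HIST1H1T, the testis-specific H1 gene, was barely present, at 2.01, 2.93 and 3.69 FPKM against 1.57, 2.05 and 0.921, and its groups overlapped. Its call (0.63, adjusted p = 0.0211) was lost without control library 3 (adjusted p = 0.0707), knockdown library 2 (0.0536) or knockdown library 3 (0.0733).

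Of the H2A genes, 9 of 14 tested rose (64.3%, against 30.5% of all tested genes) and none fell (against 35.9%), with a median of 0.16. The most abundant, HIST1H2AE (chr6:26216975-26217483), was at 691.5, 635.2 and 691.1 FPKM in knockdown libraries and 613.8, 610.2 and 613.8 in control libraries, and its call (0.13, adjusted p = 0.018) was lost when control library 1 or 2 or knockdown library 1 or 3 was left out (adjusted p = 0.0547, 0.0571, 0.0676 and 0.0583). HIST1H2AK (chr6:27837947-27838339) showed the largest rise of the type. It was at 111.4, 109.6 and 98.7 FPKM against 64.7, 64.4 and 67.3 (0.69, SE 0.0519, adjusted p = 4.82e-06), with a wide gap between the groups. HIST1H2AJ rose by 0.52, HIST3H2A by 0.45, HIST2H2AC by 0.39 and HIST2H2AB by 0.35. HIST1H2AJ shares a run of 332 bases with HIST1H2AI (0.13, adjusted p = 0.0447), whose call was lost without control library 1 or 2 or knockdown library 1 (adjusted p = 0.14, 0.124 and 0.148), so reads may have been split between them.

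The H2B genes held both the largest rise and 3 of the 5 falls: 13 of 19 tested rose and 3 fell (median 0.18). These are 68.4% and 15.8%, against 30.5% and 35.9% of all tested genes. HIST2H2BF (chr1:149782689-149812373), the most abundant, was at 1121, 1245 and 1130 FPKM in knockdown libraries and 947.4, 977.3 and 969.6 in control libraries (0.27, SE 0.0457, adjusted p = 0.000812), a direction that turned to -0.14 with quantile normalization. HIST1H2BC, at 638.3, 629.2 and 689.8 against 636.7, 619.4 and 620.3 FPKM, overlapped between groups and was not called (0.06). HIST1H2BE rose by 0.45, HIST2H2BE by 0.47 and HIST1H2BL by 0.34.

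HIST2H2BC (chr1:149844498-149850937), annotated as a transcribed pseudogene, was at 13.2, 20.3 and 11.7 FPKM in knockdown libraries and 5.32, 5.96 and 5.56 in control libraries. Every knockdown value lay well above every control value (1.24, SE 0.168, adjusted p = 0.000207). The other transcribed H2B pseudogene, HIST2H2BA, lies outside the HIST2 cluster at chr1:121108210-121117257 and went down. It was at 27.1, 29 and 26.8 against 38.3, 36.9 and 42.0 FPKM (-0.48, SE 0.0584, adjusted p = 0.000103; -0.26 with quantile normalization). Because HIST2H2BA shares a run of 227 bases with HIST2H2BF and HIST2H2BC one of 87 bases with HIST2H2BB, their FPKM depend on how shared reads were counted.

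HIST1H2BJ (chr6:27125897-27132750) fell, from 262.2, 260.2 and 261.4 FPKM in the control to 194.1, 210.2 and 216.0 in the knockdown (-0.34, SE 0.0441, adjusted p = 0.000169; -0.10 and adjusted p = 0.105 with quantile normalization). HIST1H2BD (chr6:26158146-26171349) was at 639.7, 629.1 and 609.1 FPKM in the control and 526.0, 515.6 and 588.1 in the knockdown (-0.21, SE 0.0523, adjusted p = 0.00745). Every knockdown library lay below every control library for both. Both are among the H2B genes known to give polyadenylated transcripts.

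Of the H3 genes, 6 of 11 tested rose and 1 fell (median 0.26). The shares were 54.5% and 9.09%, against 30.5% and 35.9% of all tested genes. HIST1H3A (chr6:26020490-26020900) was at 188.9, 171.4 and 191.3 FPKM in knockdown libraries and 105.6, 109.8 and 120.7 in control libraries, a 1.64-fold ratio of means (0.71, SE 0.0608, adjusted p = 1.14e-05). HIST1H3I followed, at 293.1, 331.2 and 321.1 against 210.3, 203.2 and 224.8 FPKM (0.56, SE 0.0558, adjusted p = 2.94e-05). For neither gene did the groups come close. HIST1H3B, the most abundant H3 gene, was at 748.0, 698.7 and 834.2 against 620.1, 638.8 and 638.0 FPKM (0.26, SE 0.06, adjusted p = 0.00442; 0.17 with quantile normalization). HIST1H3C rose by 0.46, HIST1H3J by 0.37 and HIST2H3D by 0.36. The single fall was HIST1H3D, at 96.6, 94.4 and 96.0 against 101.6, 104.4 and 110.1 FPKM (-0.14, adjusted p = 0.0161), which turned to 0.18 with quantile normalization and was not called without control library 3 (-0.11, adjusted p = 0.0653).

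Nearly all H4 genes code for the same protein, while their transcripts ranged widely in level and in change: 8 of 12 tested rose and 1 fell (median 0.28). The shares were 66.7% and 8.33%, against 30.5% and 35.9% of all tested genes. HIST1H4C (chr6:26103876-26104310), the most abundant member of the family, was at 1217, 1119 and 1306 FPKM in knockdown libraries and 1014, 1026 and 994.7 in control libraries (0.26, SE 0.0542, adjusted p = 0.00266; -0.12 with quantile normalization). HIST1H4E was at 1116, 1197 and 1176 against 891.7, 909.1 and 944.5 FPKM (0.35, SE 0.0401, adjusted p = 8.03e-05; -0.09 with quantile normalization). On the deposited scale both groups of both genes stood apart. HIST1H4B was at 801.6, 869.8 and 900.4 against 660.6, 656.0 and 678.2 FPKM (0.36, SE 0.0463, adjusted p = 0.000143; 0.11 with quantile normalization). HIST1H4L was at 736.2, 829.5 and 800.9 against 628.8, 687.6 and 595.2 FPKM (0.31, SE 0.0621, adjusted p = 0.00221; 0.15 and adjusted p = 0.109 with quantile normalization). HIST1H4H, at 571.4, 531.6 and 562.2 against 539.3, 533.5 and 540.1 FPKM, overlapped and was not called (0.05), although it was called without knockdown library 2 (0.08, adjusted p = 0.0263).

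The largest H4 rise was that of HIST1H4F (chr6:26240426-26240737), at 359.3, 364.2 and 334.4 FPKM in knockdown libraries and 252.0, 225.2 and 238.8 in control libraries (0.56, SE 0.0513, adjusted p = 1.74e-05). HIST1H4D rose by 0.48 and HIST1H4A by 0.46. HIST4H4 (chr12:14767999-14771131), the lone gene of its locus, fell to 36.9, 31.8 and 32.7 FPKM from 54.6, 46.3 and 49.1 (-0.55, SE 0.0744, adjusted p = 0.000206), the largest fall of the family, and was at -0.31 with quantile normalization. HIST1H4J and HIST1H4K share a run of 312 bases and were both lowest in knockdown library 2. HIST1H4J was at 28.7, 9.56 and 27.0 FPKM in knockdown libraries and 26.3, 28.2 and 23.3 in control libraries (-0.38, adjusted p = 0.347), and at 0.10 without that library. HIST1H4K was at 42.1, 25.0 and 60.7 against 50.6, 49.5 and 52.7 FPKM (-0.34, adjusted p = 0.266), at -0.01 without knockdown library 2 and called lower without knockdown library 3 (-0.63, adjusted p = 0.0164).

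**Figure D3:**
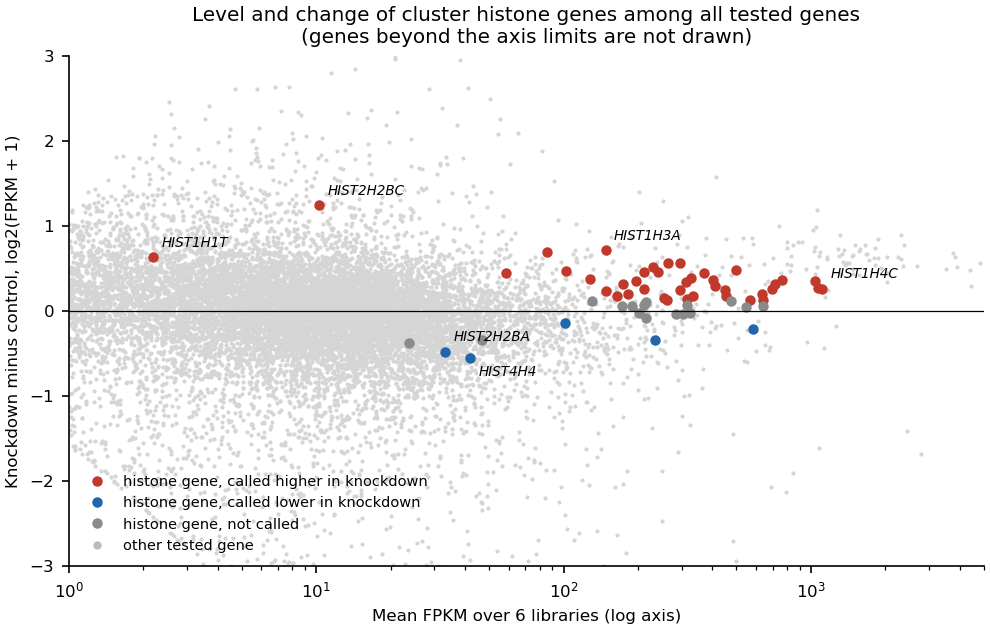
Mean FPKM over the 6 libraries (log axis) against the difference between knockdown and control, log2(FPKM + 1), for the 61 tested members (coloured by call) among all 13434 tested genes (light grey). Most members lie at the high end of the level axis with small differences; the labelled HIST4H4 and HIST2H2BA lie lower and below 0, and the sign of HIST1H4C turns with quantile normalization.

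The HIST1 cluster spans chr6:25726132-27893843, and 32 of its 51 tested members rose while 3 fell (median 0.18). These are 62.7% and 5.88%, against 30.5% and 35.9% of all tested genes. The cluster falls into 2 groups of genes with a gap between them. In chr6:25726132-26285638, 19 of 30 tested members rose and 2 fell, and in chr6:27125897-27893843, 13 of 21 rose and 1 fell. The median was 0.184 in each. Among the 27 other genes of the table inside the cluster's span, 14 were tested, of which 4 rose and 3 fell (median 0.06). These are 28.6% and 21.4%, against 30.5% and 35.9% of all tested genes. GUSBP2 (0.63), LINC01012 (0.52), ZNF391 (0.37) and BTN3A1 (0.35) rose, and BTN2A1 (-0.53), HMGN4 (-0.32) and ABT1 (-0.17) fell, all named after their values were seen. With quantile normalization HMGN4 (-0.08) and ABT1 (-0.09) were not called. In HIST2, on chromosome 1, 6 of 7 tested genes rose and 1 fell (median 0.36), the fall being HIST2H2BA. Both tested HIST3 genes, HIST3H2A and HIST3H2BB, rose (0.45 and 0.23), but HIST3H2BB overlapped between groups and was not called without control library 1 (adjusted p = 0.0752) or 3 (0.114) or knockdown library 2 (0.0849) or 3 (0.105).

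**Figure D4:**
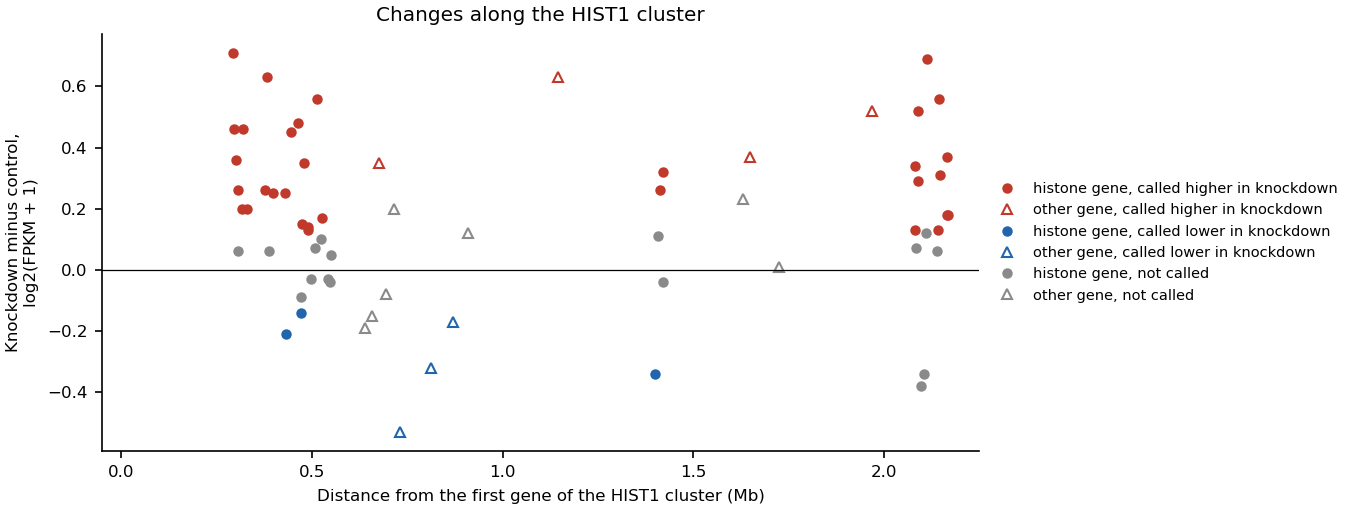
Difference between knockdown and control, log2(FPKM + 1), of tested HIST1 members (filled circles) and other tested genes (open triangles) by distance in Mb from the first gene of the cluster. Histone genes called higher (red) occur in both groups of genes along the cluster, at a median of 0.184 in each; the sign of HIST1H3D, HIST1H4C and HIST1H4E turns with quantile normalization.

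H2A and H2B genes often lie head to head around a shared promoter region. By the ends of the GENCODE models there were 11 such pairs, with starts 219 to 331 bases apart, of which 10 were tested. Both genes rose in 6 pairs, 1 gene was called in 4 pairs, and in 0 pairs were the genes called in opposite directions. Over all tested members, 64.3% of H2A and 68.4% of H2B genes rose, and no H2A gene fell. Pairs with both genes higher would thus be frequent without any link within pairs, and opposite calls rare. Whether the genes of a pair moved together was not tested. HIST2H2AC and HIST2H2BE rose by 0.39 and 0.47, and HIST1H2AJ and HIST1H2BM by 0.52 and 0.29. By the RefSeq windows 1 more pair faces each other, HIST1H2AK, which rose (0.69), and HIST1H2BN, which was not called (0.12), with the widest gap in change. In the pair with HIST1H2AG, HIST1H2BJ fell (-0.34) while its partner was not called, at 524.4, 453.2 and 501.1 FPKM in knockdown libraries and 485.6, 486.4 and 397.5 in control libraries (0.11). HIST1H2AH was not called (-0.04) beside HIST1H2BK, which rose by 0.32 with knockdown library 2 at 241.0 FPKM and the other two at 174.4 and 168.6. The call of HIST1H2BK was lost without control library 1, 2 or 3 (adjusted p = 0.0965, 0.0708 and 0.0903).

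Members known to give polyadenylated transcripts moved in both directions. Of the 8, HIST2H2BE (0.47), HIST1H2BK (0.32), HIST1H2AC (0.25) and HIST1H1C (0.20) rose, HIST4H4 (-0.55), HIST1H2BJ (-0.34) and HIST1H2BD (-0.21) fell, and HIST1H2BC (0.06) was not called, for a median of 0.13. Of the 53 tested members not on that list 36 rose and 2 fell (median 0.23). The list thus held 3 of the 5 members that fell. Its 3 falls among 8 members are a share near the 35.9% of all tested genes called lower. The 2 falls among the 53 other members are a share well below that. Rises were more frequent than the 30.5% of all tested genes called higher, both on the list and off it. Members with a GENCODE model ending in AATAAA within its last 40 bases, the usual signal for a poly(A) tail, gave 7 rises and 2 falls among 16 tested (median 0.12), and members with no such model gave 33 rises and 3 falls among 45 (median 0.25). HIST1H4J is among the 16, although its AATAAA lies before the stem-loop and its model ends 6 bases after the stem-loop. The 45 include the 30 tested members whose models end at the stop codon, with 21 rises and 1 fall. No signal could be found after the stop in these, so the split partly reflects how complete the models are. Of members by stem-loop form, 11 of 13 with the form shown for HIST1H2AE rose and 0 fell (median 0.23), whereas 1 of 4 with the form of HIST1H2BD rose and 1 fell (median 0.02). These splits are descriptions of these members with no test of a difference. They also rest on models, since FPKM do not tell processed from polyadenylated transcripts of a gene.

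Because histone genes are near copies of each other, the length of sequence shared with another histone gene was computed. Genes whose spans overlap in the genome, such as HIST1H2AL and HIST1H2BN, were not compared with each other. Bases shared by such an overlap are therefore not in these lengths. The median identity of coding sequences of the same length was 85.5% within H2A, 89.8% within H2B, 85.3% within H3 and 83.7% within H4. Of the 39 tested members whose longest shared run was under 75 bases, 25 rose and 2 fell (median 0.20). Of the 22 with a longer run, 15 rose and 3 fell (median 0.25). Rises were thus 64.1% and 68.2%, against 30.5% of all tested genes, and falls 5.13% and 13.6%, against 35.9%. How the submitters' counting treated reads that fit several copies is not given in the sources used here.

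The remaining 10 members averaged under 1 FPKM and were not tested. Of these HIST3H3, a testis H3 gene, was at 0.755, 1.29 and 0.285 FPKM in knockdown libraries and 1.1, 1.15 and 1.28 in control libraries. HIST2H3A and HIST1H1A stayed at or below 0.512 and 0.654 FPKM in every library. HIST1H2APS1, a pseudogene, HIST1H4G and HIST2H4B were listed at 0 in all 6 libraries, as were HIST1H2AA, HIST1H2BA and HIST2H3C in all knockdown libraries. The last of the 10, HIST2H2AA3, was above 0 in 1 library of each group. HIST2H2AA3, HIST2H3A, HIST2H3C and HIST2H4B share runs of 549 to 1656 bases with another gene of the cluster, so a value near 0 does not show that they are silent.

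Among the factors that transcribe and process histone messenger RNA, 3 of 14 rose and 2 fell (median 0.05). These are 21.4% and 14.3%, against 30.5% and 35.9% of all tested genes. With quantile normalization 9 rose, and with columns scaled to equal sums 4 fell. HINFP, which activates H4 genes, rose by 0.44 (5.63 ± 0.369 against 3.88 ± 0.313 FPKM), and SYMPK, a scaffold of the cleavage complex, by 0.26. The U7 particle subunits LSM10 and LSM11 fell, to 11.5 ± 1.47 from 16.8 ± 0.462 FPKM (-0.52) and to 2.61 ± 0.408 from 3.81 ± 0.221 FPKM (-0.42; SD, n = 3). NPAT was at 11.2 ± 0.957 against 11 ± 0.845 FPKM (0.02, adjusted p = 0.849). SLBP was at 20.7 ± 1.73 against 23.6 ± 1.59 FPKM and missed the threshold (-0.18, adjusted p = 0.0532), passing it with columns scaled to equal sums (-0.21, adjusted p = 0.0209), with a minimum of 5 FPKM (0.0498), without control library 3 (0.0496) or without knockdown library 1 (0.0345).

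Of 13 factors for export, translation and decay of histone messenger RNA, 4 rose and 3 fell (median -0.06). These are 30.8% and 23.1%, against 30.5% and 35.9% of all tested genes. DIS3L2, an exonuclease that degrades uridylated RNA, rose by 0.63, and ZCCHC11, a uridylyl transferase, by 0.41. LSM1, part of the ring that binds the uridylated tail, fell by 0.55, and EXOSC10, an exosome nuclease, by 0.44. Of 24 histone chaperones 8 rose and 11 fell (median 0.02), and 13 rose and 5 fell with quantile normalization. The chaperone shares were 33.3% higher and 45.8% lower, against 30.5% and 35.9% of all tested genes. ASF1B, which hands H3 and H4 to the replication fork, was at 5.75 ± 0.622 against 14.3 ± 0.634 FPKM (-1.18). HJURP, the CENPA chaperone, fell by 1.11, RBBP7 by 0.71 and ANP32E, which removes H2A.Z, by 0.51. With quantile normalization LSM1 was at -0.34, EXOSC10 at -0.29, RBBP7 at -0.45 and ANP32E at -0.25.

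Most histone genes outside the clusters are expressed through the cell cycle from polyadenylated messenger RNAs. Of the histone genes outside the clusters, 2 of 10 tested rose and 5 fell (median -0.25). Among all tested genes, 30.5% were called higher and 35.9% lower. Whether these 10 genes differ from all tested genes was not tested. H2AFZ, which codes for H2A.Z, was at 231 ± 18.9 FPKM in knockdown libraries and 374 ± 6.16 in control libraries (-0.70, adjusted p = 8.55e-06). CENPA fell by 0.63, H2AFV by 0.52, H3F3B, which codes for H3.3, by 0.45 and H2AFX by 0.34, while H2AFY2 (0.42) and H1FX (0.40) rose. With quantile normalization 4 rose and 4 fell: H2AFV was at -0.18, H3F3B at -0.2 and H2AFX, not called, at -0.08, and H2AFY2 and H1FX were at 0.64 and 0.68. H3F3A was too variable to compare (SE 0.64). The difference in direction between clustered and other histone genes was not tested.

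**Figure D5:**
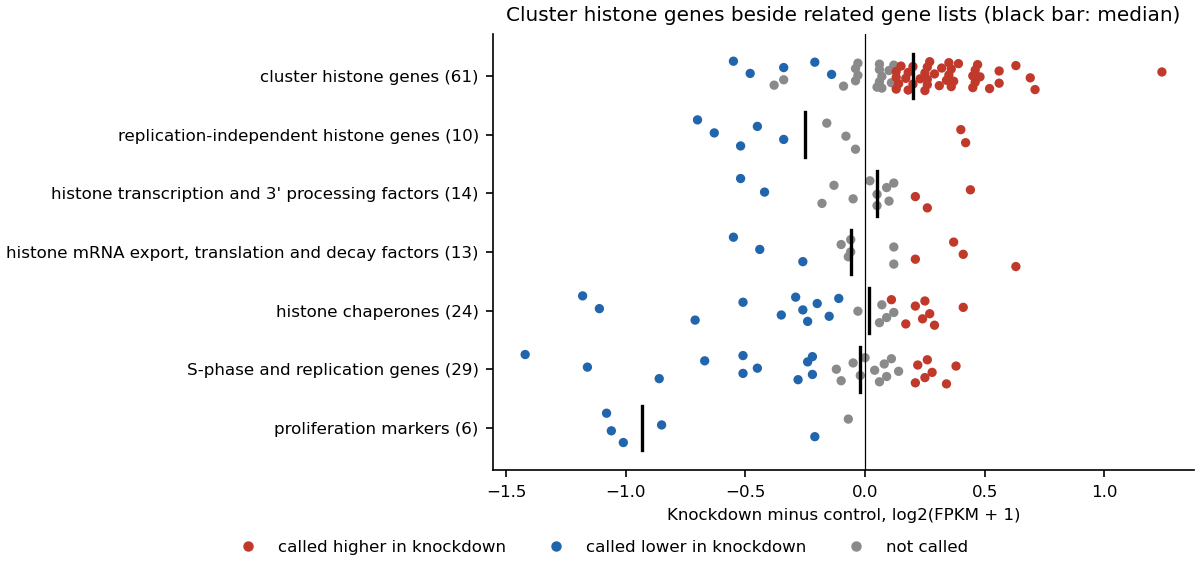
Difference between knockdown and control, log2(FPKM + 1), of the tested cluster histone genes and of 6 related lists; each point is a gene, coloured by its call, and black bars are medians. The median is 0.20 for the cluster histone genes, -0.25 for the replication-independent histone genes and -0.93 for the proliferation markers; with quantile normalization HIST1H4C, HIST1H4E, HIST2H2BF and HIST1H3D change sign, as do some other genes drawn here.

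Of 29 S-phase and replication genes 7 rose (24.1%) and 11 fell (37.9%, median -0.02), shares near the 30.5% and 35.9% of all tested genes, and 14 rose and 8 fell with quantile normalization. The 7 that rose were MCM6 (0.38), UNG (0.34), E2F1 (0.28), MCM3 (0.26), POLA1 (0.25), MCM7 (0.22) and MCM2 (0.21). The largest changes were falls. CCNA2, the S-phase cyclin, was at 14.4 ± 0.418 against 40.3 ± 1.07 FPKM (-1.42), the thymidine kinase gene TK1 at 11 ± 0.844 against 25.7 ± 1.87 (-1.16), RRM2 at 45.2 ± 1.35 against 82.9 ± 0.771 (-0.86) and CDK2 at 20.1 ± 0.0635 against 32.7 ± 1.77 (-0.67; SD, n = 3). Of 6 proliferation markers 5 fell and 0 rose (median -0.93), with CDK1 at -1.08, AURKA at -1.06, CCNB1 at -1.01 and BUB1 at -0.85, while MKI67 was not called (-0.07). The share of cells in S phase was not measured, and its part in the histone levels was not tested.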

How the data were processed

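RNA of 3 knockdown and 3 control libraries was compared. The values are FPKM for every gene in every library, as the authors deposited them. TopHat2 2.1.0, SAMtools, Cuffdiff 2.2.1 and hg38 are named, per the submitters' processing notes, with no role. For the annotation and the use of strand, nothing is stated in the sources used here. FPKM were taken as log2(FPKM + 1), which understates changes of low genes, and read counts are unknown. The 13434 genes averaging at least 1 FPKM were tested with limma 3.58.1 in R 4.3.3 (intensity trend, two-sided, Benjamini-Hochberg, adjusted p under 0.05). On simulated data of 13434 genes, 10% of 50 genes changed 1.1-fold, 76% changed 1.25-fold and 96% changed 1.5-fold were recovered, and 7 of 146 calls were false. The genes changed there were all above about 50 FPKM. They were few beside the 4092 higher and 4817 lower calls in the data, so these rates do not carry over. Members and lists were chosen with earlier results of these data known. Named members were the 25 with the largest change, the 10 with the highest level and 3 under 1 FPKM; the 12 highest and up to 6 largest rises and falls are given by library, and up to 4 called genes of each list are named. Other genes and examples (stem-loops, promoters, pairs, members of short counts) were chosen after their values were seen. All 71 members matched GENCODE v29, from which positions (1-based, GRCh38) and transcript models were read. Alternatives were other pseudocounts, minimums and scalings, a replicate block, no trend, robust moderation and leaving out each library. Python 3.11.15, numpy 2.4.6, pandas 2.3.3 and matplotlib 3.10.9 were used.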

Additional observations from a re-analysis of the deposited data

How the results depend on the processing

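Under the 18 alternatives 33 to 45 members were called higher and 4 to 6 lower, and 28 of the 45 called members (25 higher, 3 lower) passed the threshold under each. With the replicate block 39 were called higher and 5 lower (median 0.20); same-numbered libraries did not deviate together (correlations -0.018, -0.185 and -0.091). The members' median was 0.169 to 0.229 under the other alternatives and 0.315 with quantile normalization, which moved the median of all genes from -0.02 to 0.091; the members' median above that of all genes was 0.196 to 0.26 throughout, and 0.22 as reported. Leaving out single libraries gave 33 to 41 higher, 4 to 6 lower and medians of 0.19 to 0.217. Quantile normalization turned HIST1H3D to 0.18, HIST1H4C to -0.12, HIST1H4E to -0.09 and HIST2H2BF to -0.14. HIST1H4J ranged from -0.64 to 0.10 and NPAT from -0.03 to 0.08 as single libraries were left out, and NPAT was -0.01 with equal sums. The cause of these turns was not tested. Quantile normalization also changed list counts: processing factors from 3 to 9 higher, chaperones from 8 to 13 higher and 11 to 5 lower, S-phase genes from 7 to 14 higher, replication-independent histones from 2 to 4 higher, and proliferation markers from 0 to 1 higher and noradrenergic markers from 1 to 0 lower. Equal sums gave 4 processing factors lower, not 2; chaperones called higher fell from 8 to 5 without control library 2; with a 5 FPKM minimum no Schwann gene was tested. Read depth is unknown. The simulation recovered 10% of changes of 1.1-fold, but far fewer genes were changed in it than were called in the data. That rate therefore does not carry over to the members.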
